A study of Homo sapiens with 6 samples.

Results

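The genes described here are 42 members of the cell death machinery, namely the BCL2 family, the caspases, the inhibitors of apoptosis and the death receptors with their adaptors. They were chosen by gene symbol from the 64253 genes of the deposited count tables, and all 42 symbols had a row. The tables come from PC-3 cells, an established line from a bone metastasis of prostate cancer. RNA was sequenced from 3 samples of cells stably carrying a lentiviral shRNA against CdGAP (shCdGAP) and from 3 samples carrying a control shRNA (shCon), with 33182796 to 43154039 reads assigned to genes per library. CdGAP, encoded by ARHGAP31, is a GTPase-activating protein for Rac1 and Cdc42. The shCdGAP cells were selected with puromycin and grown out as single-cell clones, a step the methods do not state for the control cells, so what came with the choice of a clone and what came with the depletion cannot be told apart.

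Apoptosis runs along a pair of routes. In the mitochondrial route, guardians such as BCL2, BCL-XL and MCL1 hold the pore-forming effectors BAX and BAK in check, BH3-only proteins release that hold, and cytochrome c then leaves the mitochondria and binds APAF1 to activate caspase-9. In the receptor route, TRAIL or TNF binds a death receptor, and the adaptor FADD brings in caspase-8 or caspase-10. XIAP and related proteins block active caspases, and SMAC (DIABLO) relieves that block. PC-3 cells lack functional p53, which in other cells drives several of these genes. The comparison below asks which of these genes differ in RNA level between the cell populations.

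Levels are given in CPM, the reads of a gene scaled to the size of its library after TMM correction, and levels of different genes are compared only as CPM per kilobase of annotated exon. A change is the log2 fold change of shCdGAP against shCon by edgeR's quasi-likelihood test, with p-values adjusted over all 16439 genes tested, and a member is said to have risen or fallen only at an adjusted p under 0.01. Every p below is from that test, and SE is the standard error of the log2 fold change. ARHGAP31 itself stood at 26.4, 27.1 and 26.9 CPM in shCdGAP replicates 1, 2 and 3 and at 58.9, 60.6 and 58.2 CPM in shCon replicates 1, 2 and 3, and it fell by 1.14 on the log2 scale (SE 0.0409, adjusted p = 8.75e-08). Epithelial KRT8, KRT18 and EPCAM each had at least 2700 reads in each library and KLK3 none. Of 5 genes of blood and endothelium PECAM1 had 96, 261 and 93 in the shCdGAP and 236, 230 and 181 in the shCon libraries, CD79A at most 12, PTPRC at most 1 and CD3E and HBB none. Their part in the results below was not tested. Replicate 2 of shCdGAP stood apart from its group. It was the library farthest from the other shCdGAP libraries for 26 of the 39 tested members, against 58.2% of all tested genes. The fit without it is given below wherever leaving it out changed a call.

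Of the 42 members, 39 had enough reads to be tested, and they moved in both directions. At an adjusted p under 0.01, 12 rose and 7 fell in shCdGAP cells, and 20 did not pass. Those 19 are 48.7% of the members tested, and 46.2% of all tested genes passed the same threshold (24.1% higher and 22.0% lower), so the share of the members was near the background. Without shCdGAP replicate 2, 19 rose and 12 fell, which is 79.5% of the tested members, against 60.0% of all genes tested in that fit. Adjusted p could be far smaller in that fit even where the change was nearly the same, though not for every member. CASP2 had a log2 fold change of -0.61 (adjusted p = 2.32e-06) with all libraries and -0.60 (adjusted p = 1.09e-19) in that fit. BIRC6 had one of -0.11 in both, with an adjusted p of 0.126 and 0.277. The adjusted p-values of that fit are therefore not comparable gene by gene with those from all libraries. The median log2 fold change was 0.12 over the tested members and 0.01 over all tested genes. Since the RNA is of whole cultures, fewer cells expressing a gene and less RNA of it per cell cannot be told apart.

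Separated by role, both sides of the machinery changed in both directions. Among 11 tested members that restrain apoptosis, 4 rose, 2 fell and 5 did not pass, and their median log2 fold change was 0.18. Among 21 that promote it, 6 rose, 4 fell and 11 did not pass, with a median of 0.11. The remaining 7 tested members act in inflammation or mitophagy or can signal either survival or death. Of these, 2 rose, 1 fell and 4 did not pass. Without shCdGAP replicate 2 the counts were 6 higher and 3 lower of the restraining members, 10 and 6 of the promoting members and 3 and 3 of the rest. A log2 fold change above 1 in size was reached by CASP1 and BCL2A1, which were higher, and by BIK, which was lower, where 8.56% of all tested genes were past that limit upwards and 4.19% downwards (12.8% in all). At a log2 fold change of at least 0.5 in size, 7 members rose and 5 fell, together 30.8% of those tested, against 24.6% of all tested genes (15.2% higher and 9.45% lower). The groups did not overlap for 29 of the 39 tested members (74.4%), against 67.1% of all tested genes (34.4% higher and 32.7% lower).

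**Figure D1:**
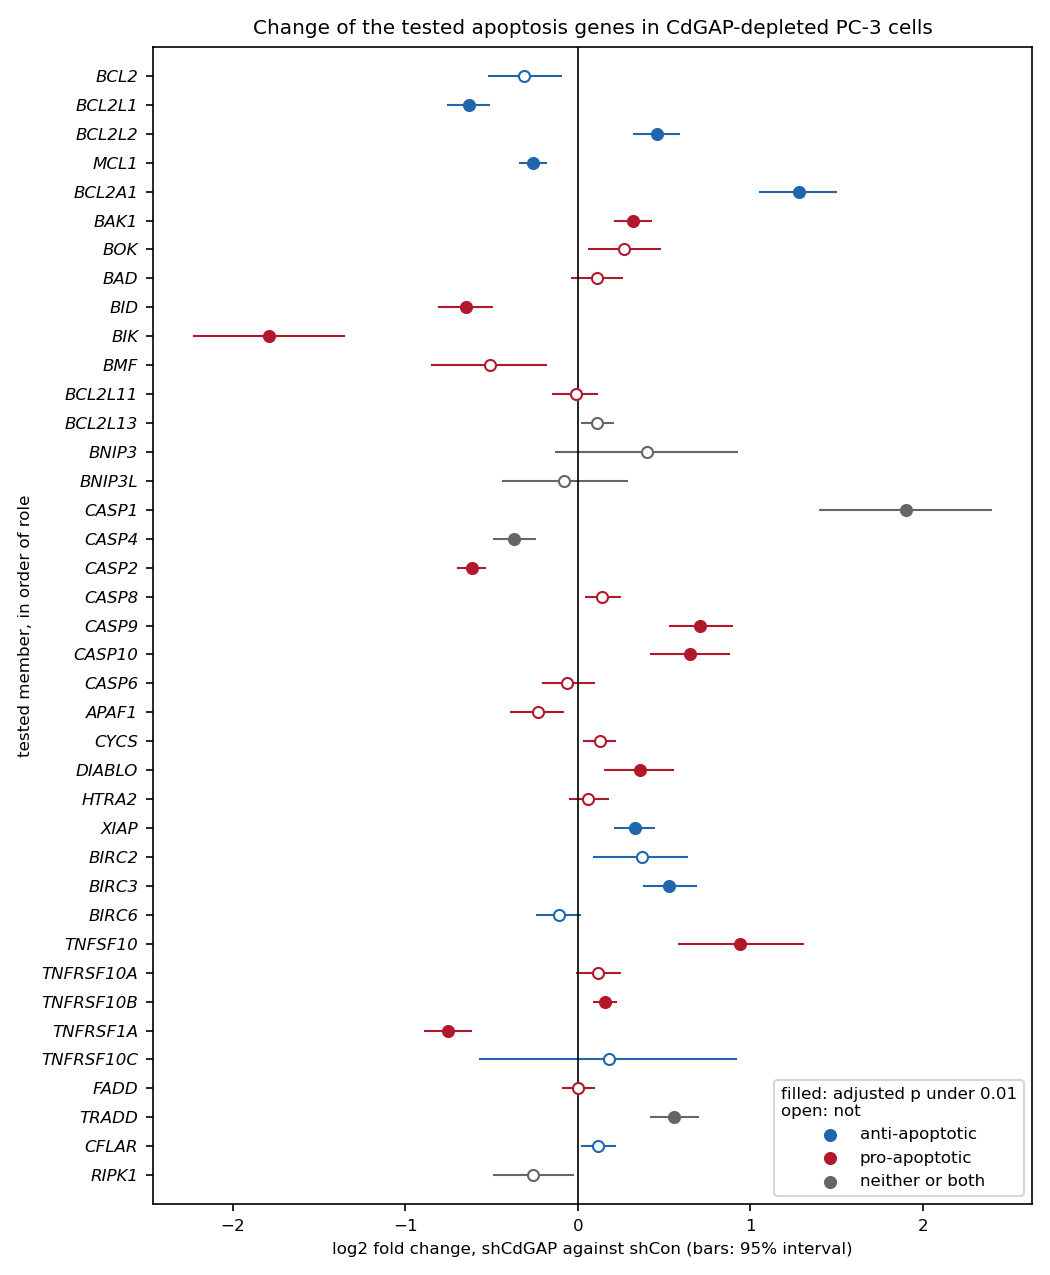
Log2 fold change of each of the 39 tested members in shCdGAP against shCon cells (x axis), in order of role (y axis). Points are edgeR estimates with 95% intervals, filled where the adjusted p is under 0.01. Pro-apoptotic members (red), anti-apoptotic members (blue) and the others (grey) each lie on both sides of 0, from -1.79 for BIK to 1.90 for CASP1.

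The BCL2-type guardians moved in opposite directions. BCL2L1 and MCL1, which were the most abundant of the 5 per kilobase in control cells, were lower in shCdGAP cells, and BCL2A1 and BCL2L2 were higher. BCL2A1 (ENSG00000140379, chromosome 15 from 79960889 to 79971446 in GRCh38, as all positions here), a guardian often induced in blood cells by inflammatory signals, stood at 5.46, 5.14 and 4.78 CPM in shCon replicates 1, 2 and 3 and at 11.9, 13.8 and 11.6 CPM in shCdGAP replicates 1, 2 and 3. Every shCdGAP library lay above every shCon library, and the log2 fold change was 1.28 (SE 0.0984, adjusted p = 7.13e-06), a rise of 2.42-fold. BCL2L1 (ENSG00000171552, chromosome 20 from 31664452 to 31723989) encodes BCL-XL and, by splicing, the shorter pro-apoptotic BCL-XS, which gene counts do not separate. Its control libraries held 106, 108 and 104 CPM and its shCdGAP libraries 65.7, 74.0 and 64.8 CPM. The groups were well apart, with replicate 2 the highest of the shCdGAP libraries, and the level fell by 0.63 on the log2 scale (SE 0.0543, adjusted p = 1.34e-05), so that its CPM fell by 35.6%.

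MCL1, a guardian with a short-lived protein, was the most abundant of these genes at 72.7 ± 0.644 CPM per kilobase in control cells (SD, n = 3) and 60.7 ± 1.597 in shCdGAP cells (SD, n = 3). It was at 315, 321 and 317 CPM in the shCon libraries and at 266, 272 and 258 CPM in the shCdGAP libraries, and it fell by 0.26 on the log2 scale (SE 0.0339, adjusted p = 0.000184). BCL2L2, encoding BCL-W, rose by a log2 fold change of 0.46 (SE 0.0589, adjusted p = 0.000164). Of its exonic bases, 19.4% are shared with the read-through gene BCL2L2-PABPN1 on the same strand, where reads are not assigned, so its level may be understated. BCL2 itself was low, at 1.89 and 1.53 CPM per kilobase in control and shCdGAP cells, and its log2 fold change of -0.31 did not pass (SE 0.0947, adjusted p = 0.0203). Without shCdGAP replicate 2 it was -0.21 with an adjusted p of 0.00474.

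Added up per kilobase, the 5 guardians came to 121, 123 and 119.8 CPM per kilobase in the shCon libraries and to 108, 111 and 105 in the shCdGAP libraries, the latter all lower. MCL1 made up 59.95 ± 0.557% of that sum in control cells and 56.2 ± 0.307% in shCdGAP cells (SD, n = 3 each). The share of BCL2L1 went from 26.4 ± 0.314% to 19.0 ± 0.908%, that of BCL2L2 from 8.24 ± 0.264% to 12.7 ± 1.25%, and that of BCL2A1 from 3.88 ± 0.234% to 10.6 ± 0.740% (SD, n = 3 each). These shares were not tested, since they are scores over chosen members.

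**Figure D2:**
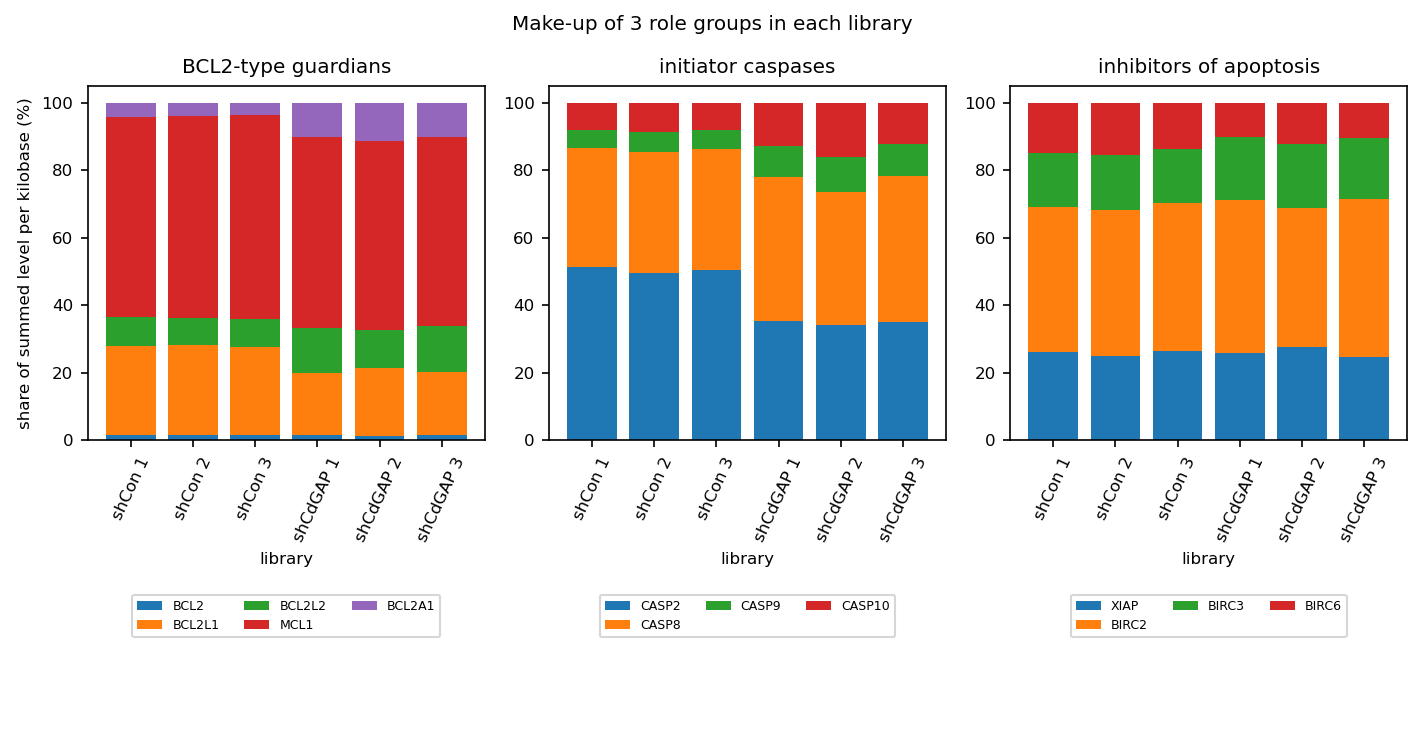
Share of each member (y axis, percent) in the summed level per kilobase of its role group, one bar per library (x axis), for guardians, initiator caspases and inhibitors of apoptosis. In the guardians the BCL2L1 band is narrower and the BCL2A1 band wider in all 3 shCdGAP libraries, and in the initiator caspases the CASP2 band shrinks from 50.4% to 34.8% on average.

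Of the pore-forming effectors among the members, BAK1 rose and BOK did not pass. BAK1 had a log2 fold change of 0.32 (SE 0.0494, adjusted p = 0.000493). BOK, the more abundant per kilobase, was at 44.8, 43.9 and 43.5 CPM in the shCon libraries and at 48.3, 61.8 and 48.9 CPM in the shCdGAP libraries, where replicate 2 lay above the others. Its log2 fold change of 0.27 (SE 0.0908, adjusted p = 0.0324) became 0.13 without that library, with an adjusted p of 0.00267.

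Of the 5 tested BH3-only genes among the members, BID and BIK fell and none rose, while PMAIP1, a BH3-only gene of the wider pathway list described below, rose. BIK (ENSG00000100290, chromosome 22 from 43110748 to 43129712), whose protein sits in the endoplasmic reticulum, had few reads in all libraries. It had 106, 136 and 119 reads in shCon replicates 1, 2 and 3 and 30, 44 and 32 in the shCdGAP replicates, or 2.53, 3.22 and 3.60 against 0.740, 1.01 and 0.931 CPM. The lowest control library lay far above the highest shCdGAP library, and the level fell by 1.79 on the log2 scale (SE 0.193, adjusted p = 5.59e-05), so that its CPM fell by 71.1%. BID (ENSG00000015475, chromosome 22 from 17734138 to 17774770), which caspase-8 cleaves to link the receptor route to the mitochondria, stood at 64.4, 62.7 and 62.6 CPM in the shCon libraries and at 43.1, 35.5 and 42.2 CPM in the shCdGAP libraries. All shCdGAP libraries were below all control libraries, replicate 2 the lowest, and BID fell by 0.65 on the log2 scale (SE 0.0701, adjusted p = 5.67e-05).

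BAD was the most abundant BH3-only gene among the members, with 37.8, 41.0 and 37.0 CPM in the shCon and 39.4, 45.4 and 40.2 CPM in the shCdGAP libraries. The groups overlapped, and the log2 fold change of 0.11 did not pass (SE 0.0663, adjusted p = 0.181, 95% interval -0.04 to 0.26). BCL2L11, encoding BIM, had a log2 fold change of -0.01 (adjusted p = 0.873, 95% interval -0.15 to 0.12). BMF had one of -0.51 (adjusted p = 0.0152), which without shCdGAP replicate 2 was -0.68 with an adjusted p of 5.96e-06. HRK had 1 or 2 reads in each library and was not tested.

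BCL2L13, BNIP3 and BNIP3L, relatives that act as receptors for the removal of mitochondria, did not pass. BCL2L13 had a log2 fold change of 0.11 (adjusted p = 0.0478), which was 0.15 without shCdGAP replicate 2 (adjusted p = 9.61e-05). In BNIP3 and BNIP3L, both known targets of the hypoxia response, shCdGAP replicate 2 lay above the other libraries of its group. BNIP3 was at 138, 207 and 119.6 CPM in shCdGAP replicates 1, 2 and 3 and at 112, 124 and 116 CPM in the shCon replicates, so replicates 1 and 2 lay above the control range and replicate 3 within it. BNIP3L was at 90.1, 125 and 83.2 CPM in the shCdGAP and at 101, 108 and 106 CPM in the shCon libraries, with replicate 2 above and replicates 1 and 3 below all controls. Without replicate 2 the log2 fold change of BNIP3L went from -0.08 to -0.28 (adjusted p = 3.83e-08) and that of BNIP3 from 0.40 to 0.13 (adjusted p = 0.264).

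**Figure D3:**
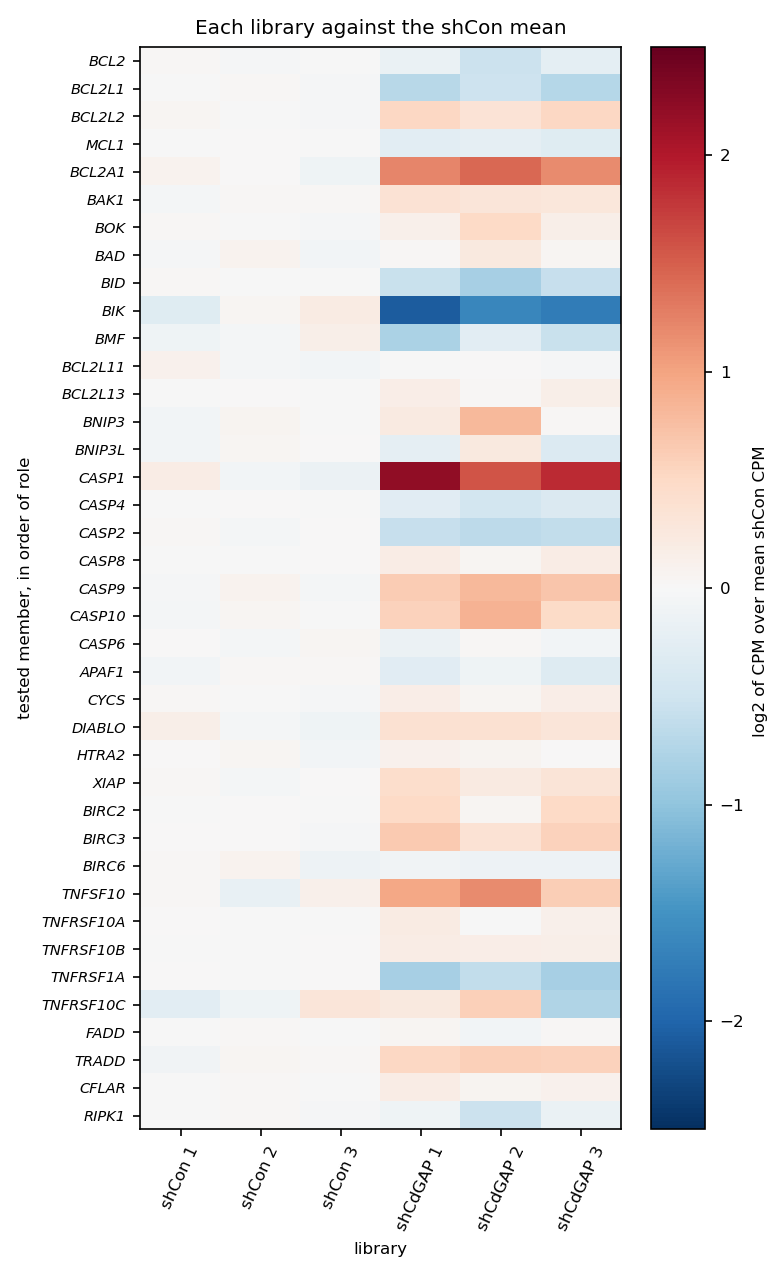
Log2 ratio of the CPM in each of the 6 libraries (x axis) to the mean of the shCon libraries, for the 39 tested members (y axis). The shCon columns are paler than the shCdGAP columns, which share a colour for most members, and replicate 2 differs from its group at BNIP3, BNIP3L, BIRC2 and RIPK1.

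The initiator caspases moved in both directions as well. CASP2 fell, CASP9 and CASP10 rose, and CASP8 did not pass. CASP2 (ENSG00000106144, chromosome 7 from 143288215 to 143307696), activated in a complex called the PIDDosome, was at 102, 97.0 and 100.03 CPM in shCon replicates 1, 2 and 3 and at 66.6, 63.1 and 65.5 CPM in shCdGAP replicates 1, 2 and 3. The spread within each group was small beside the gap, and it fell by 0.61 on the log2 scale (SE 0.0394, adjusted p = 2.32e-06), so that its CPM fell by 34.7%. CASP9 (ENSG00000132906, chromosome 1 from 15490832 to 15526534), the caspase of the mitochondrial route, had 7.13, 7.70 and 7.05 CPM in the shCon and 11.4, 12.8 and 11.7 CPM in the shCdGAP libraries. Every shCdGAP library lay above every control library, with a log2 fold change of 0.71 (SE 0.0810, adjusted p = 7.69e-05), and the 50 expressed genes around it on chromosome 1 had a median log2 fold change of 0.23.

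CASP10, CASP8 and CFLAR are neighbours on chromosome 2, from 201116104 at the start of CFLAR to 201287711 at the end of CASP8. CASP10 (ENSG00000003400), a death receptor caspase related to caspase-8, stood at 14.99, 15.9 and 15.4 CPM in the shCon libraries and at 23.0, 28.2 and 21.4 CPM in the shCdGAP libraries. The groups did not overlap, replicate 2 being the highest, and the log2 fold change was 0.65 (SE 0.0997, adjusted p = 0.000518). CASP8, the most abundant of the initiator caspases in shCdGAP cells at 9.73 ± 0.527 CPM per kilobase (SD, n = 3), had 63.6, 63.4 and 64.6 CPM in the shCon and 72.7, 66.1 and 72.8 CPM in the shCdGAP libraries. Its log2 fold change of 0.14 did not pass (SE 0.0465, adjusted p = 0.0260, 95% interval 0.04 to 0.25), and it was 0.18 without shCdGAP replicate 2 (adjusted p = 8.66e-06). CFLAR encodes FLIP, which in its long form at high levels blocks caspase-8, and had 49.96, 51.5 and 49.97 CPM in the shCon and 57.1, 52.7 and 54.3 CPM in the shCdGAP libraries. Its log2 fold change of 0.12 did not pass (SE 0.0438, adjusted p = 0.0466), and it was 0.13 without shCdGAP replicate 2 (adjusted p = 0.00175).

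Summed per kilobase, the 4 initiator caspases came to 24.7 ± 0.228 CPM per kilobase in control and 23.3 ± 0.194 in shCdGAP cells (SD, n = 3 each), and all shCdGAP libraries were lower. CASP2 went from 50.4 ± 0.833% of that sum to 34.8 ± 0.712%, CASP8 from 35.8 ± 0.332% to 41.8 ± 2.04%, CASP9 from 5.61 ± 0.325% to 9.75 ± 0.684% and CASP10 from 8.24 ± 0.331% to 13.7 ± 2.10% (SD, n = 3 each). CASP6, the executioner caspase among the members, had 17.1, 16.3 and 17.5 CPM in the shCon and 15.3, 17.4 and 16.2 CPM in the shCdGAP libraries. The groups overlapped, with a log2 fold change of -0.06 (SE 0.0667, adjusted p = 0.492, 95% interval -0.21 to 0.10).

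The inflammatory caspases, which cleave cytokines and gasdermin rather than the apoptotic substrates, went in opposite directions although they lie close together on chromosome 11. CASP1 (ENSG00000137752, chromosome 11 from 105025443 to 105035250), the caspase of the inflammasome, had 32, 27 and 20 reads in the shCon and 127, 87 and 84 in the shCdGAP libraries, or 0.763, 0.640 and 0.605 against 3.13, 2.00 and 2.44 CPM. Every shCdGAP library was above every control library, and the log2 fold change of 1.90 (SE 0.218, adjusted p = 8.29e-05) was the highest of the tested members. Its level stayed low even so, at 0.683 CPM per kilobase in shCdGAP cells against 3.91 for CASP4. Reads from stretches that CASP1 shares with the related CARD16 and CARD17 genes can have gone uncounted. CASP4, a sensor of intracellular lipopolysaccharide, was at 36.1, 36.9 and 36.5 CPM in the shCon and at 30.1, 26.4 and 28.6 CPM in the shCdGAP libraries, and it fell by 0.37 on the log2 scale (SE 0.0556, adjusted p = 0.000470).

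**Figure D4:**
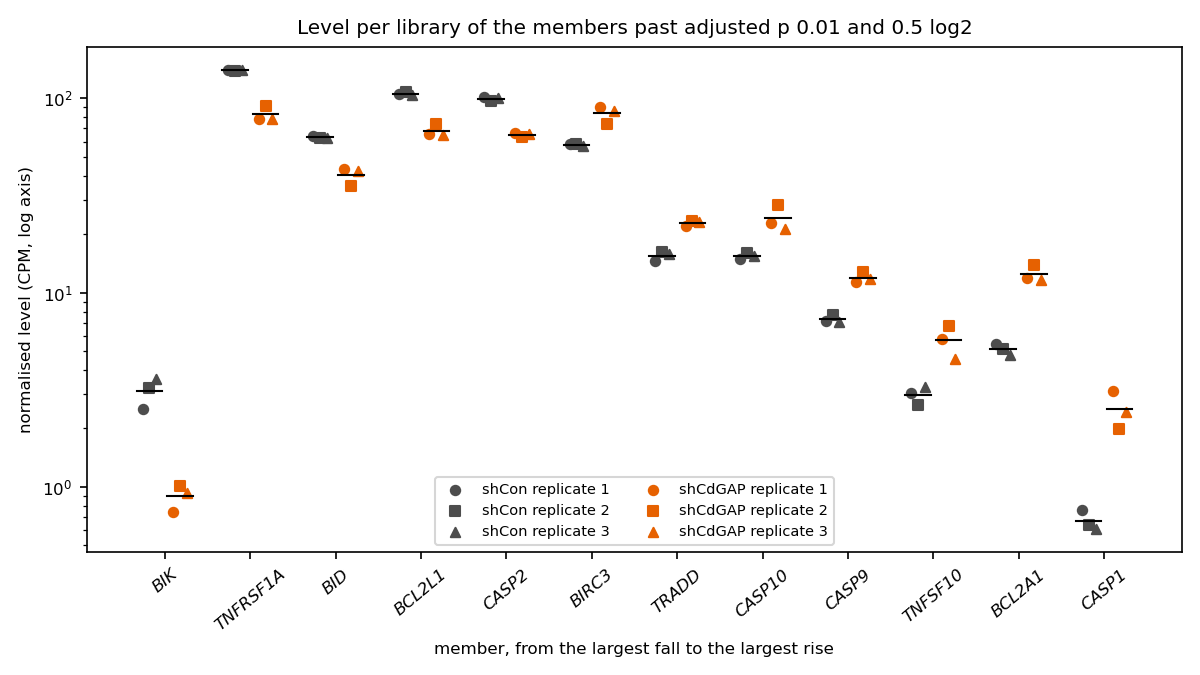
Level in CPM on a log axis (y axis) of the 12 members past an adjusted p of 0.01 with a log2 fold change of at least 0.5 in size (x axis), with 1 point per library and a line at the group mean. Control and shCdGAP libraries do not overlap for any of the 12, and CASP1 and BIK lie lowest on the axis, which is not scaled to gene length.

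In the mitochondrial route downstream of the BCL2 family, DIABLO rose and APAF1, CYCS and HTRA2 did not pass. CYCS, encoding cytochrome c, was with MCL1 the most abundant of the members, at 71.9 ± 1.58 CPM per kilobase in control cells and 78.4 ± 3.63 in shCdGAP cells (SD, n = 3 each). It had 328, 319 and 314 CPM in the shCon and 360.3, 331 and 358 CPM in the shCdGAP libraries, and a log2 fold change of 0.13 (SE 0.0420, adjusted p = 0.0278), or 0.16 without shCdGAP replicate 2 (adjusted p = 1.68e-06). The human genome holds many processed copies of CYCS, and reads that align to several places were not counted, so its level is uncertain. DIABLO had a log2 fold change of 0.36 (SE 0.0903, adjusted p = 0.00798). That call was lost without shCdGAP replicate 1 or 3 or shCon replicate 2 or 3, with adjusted p from 0.0157 to 0.0447, and with the replicate number as a block (adjusted p = 0.0106). Of its exonic bases, 19.1% are shared with another gene on the same strand. APAF1 had a log2 fold change of -0.23 (adjusted p = 0.0169), which was -0.31 without shCdGAP replicate 2 (adjusted p = 3.29e-07), and HTRA2 one of 0.06 (adjusted p = 0.300).

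Of the 4 inhibitors of apoptosis among the members, BIRC3 and XIAP rose and none fell, while BIRC5 of the wider pathway list fell. BIRC3 (ENSG00000023445, chromosome 11 from 102317450 to 102339403), encoding the ubiquitin ligase cIAP2, a well-known target of NF-κB, stood at 58.0, 58.3 and 56.8 CPM in shCon replicates 1, 2 and 3 and at 90.5, 74.0 and 86.4 CPM in shCdGAP replicates 1, 2 and 3. All shCdGAP libraries lay above the controls, replicate 2 the least, and the log2 fold change was 0.53 (SE 0.0697, adjusted p = 0.000196). BIRC2, which encodes cIAP1, lies beside BIRC3 on chromosome 11 and was the most abundant of the 4 per kilobase. It had 93.9, 94.5 and 93.5 CPM in the shCon and 133, 97.3 and 133 CPM in the shCdGAP libraries, where replicate 2 was close to the controls. Its log2 fold change of 0.37 did not pass (SE 0.117, adjusted p = 0.0302), and without that library it was 0.49 (adjusted p = 8.86e-19). XIAP, the direct inhibitor of caspases, rose by a log2 fold change of 0.33 (SE 0.0533, adjusted p = 0.000693), and BIRC6 had one of -0.11 (adjusted p = 0.126). The summed level of the 4 was 48.2, 48.1 and 47.0 CPM per kilobase in the shCon libraries and 64.7, 52.2 and 62.7 in the shCdGAP libraries, replicate 2 again nearest to the controls.

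In the TRAIL system the ligand and the receptor TNFRSF10B rose, and the other receptors did not pass. TNFSF10 (ENSG00000121858, chromosome 3 from 172505508 to 172523507), encoding TRAIL, had 3.03, 2.63 and 3.27 CPM in the shCon and 5.80, 6.70 and 4.57 CPM in the shCdGAP libraries. Each shCdGAP library was above each control library, and the log2 fold change was 0.94 (SE 0.159, adjusted p = 0.000839), a rise of 1.92-fold. TNFRSF10B, encoding the death receptor DR5, was at 153, 153 and 154 CPM in the shCon and at 174, 172 and 169 CPM in the shCdGAP libraries. It rose by a log2 fold change of 0.16 (SE 0.0315, adjusted p = 0.00193), and did not pass without shCdGAP replicate 1 or without any one of the shCon libraries, with adjusted p from 0.0138 to 0.0233. TNFRSF10A, encoding DR4, had a log2 fold change of 0.12 (adjusted p = 0.111), which was 0.16 without shCdGAP replicate 2 (adjusted p = 0.000369).

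The decoy receptors, which bind TRAIL without passing on a death signal, were nearly or wholly unread. TNFRSF10C had 24, 27 and 28 reads in the shCon and 33, 45 and 14 in the shCdGAP libraries, with overlapping groups and a log2 fold change of 0.18 (SE 0.326, adjusted p = 0.663, 95% interval -0.57 to 0.92). TNFRSF10D had no read in any of the 6 libraries, which allows a level of up to 0.0689 to 0.0908 CPM per library, taking 3 reads as the limit for a count of 0. Per kilobase, TNFRSF10B made up 67.4 ± 0.278% and TNFRSF10A 32.0 ± 0.396% of the 4 TRAIL receptors in control cells, and 68.1 ± 1.48% and 31.3 ± 1.65% in shCdGAP cells (SD, n = 3 each). TNFRSF10C came to 0.592 ± 0.122% and 0.586 ± 0.252%.

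In the TNF receptor branch, the receptor fell and its adaptor rose. TNFRSF1A (ENSG00000067182, chromosome 12 from 6328757 to 6342114), the TNF receptor with a death domain, was at 139.6, 139 and 140.1 CPM in shCon replicates 1, 2 and 3 and at 78.3, 91.6 and 78.8 CPM in shCdGAP replicates 1, 2 and 3. The control libraries were almost equal, each shCdGAP library was far below them, and the level fell by 0.75 on the log2 scale (SE 0.0598, adjusted p = 8.81e-06), so that its CPM fell by 40.5%. TRADD (ENSG00000102871, chromosome 16 from 67154180 to 67160298), the adaptor that this receptor recruits first, had 14.6, 16.1 and 15.8 CPM in the shCon and 22.1, 23.3 and 23.2 CPM in the shCdGAP libraries. It rose by a log2 fold change of 0.56 (SE 0.0597, adjusted p = 5.18e-05), with no overlap of the groups.

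FADD, the adaptor of the TRAIL receptors, was at 65.5, 67.1 and 65.2 CPM in the shCon and at 67.9, 63.1 and 67.3 CPM in the shCdGAP libraries, with overlapping groups and a log2 fold change of 0.00 (SE 0.0419, adjusted p = 0.960, 95% interval -0.09 to 0.10). RIPK1, the kinase on which survival and death signals of TNF meet, was at 36.3, 37.2 and 35.6 CPM in the shCon and at 33.8, 25.1 and 32.5 CPM in the shCdGAP libraries. Its log2 fold change of -0.26 did not pass (SE 0.102, adjusted p = 0.0578), replicate 2 being the lowest, and without that library it was -0.14 (adjusted p = 0.00394). RIPK3, the kinase of necroptosis that RIPK1 activates, had no read in any library, under the same limit as TNFRSF10D. Of its 3256 exonic bases, 358 are shared with another gene on the same strand.

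The genes around each member were compared as well. None of the 42 lies on chromosome 13 or 9, whose tested genes had median log2 fold changes of -0.99 and -0.42. The 50 or fewer expressed genes nearest to each tested member had medians between -0.27 and 0.23. Near BCL2A1 the median was -0.14, near BIK -0.15, near CASP1 -0.07, near TNFSF10 -0.17 and near TNFRSF1A -0.02.

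Promoter windows were available for 30 of the 42 members in the RefSeq table used (GRCh38.p14), each covering 250 bases before to 50 after a start site. They were searched on both strands for a pattern of interferon-response elements (GAAA, any 2 bases, GAAA), a pattern of NF-κB sites (GGG, any 2 bases, TTTCC) and a pattern of AP-1 sites (TGANTCA). The interferon-response pattern was found for 4 of the 30 members (13.3%) and for 4.38% of all genes in the table, the NF-κB pattern for 1 (3.33%) and for 2.33% of all genes, and the AP-1 pattern for 4 (13.3%) and for 9.37% of all genes. A gene was counted if any of its windows held a match, and the 30 members had from 1 to 5 windows each. These shares were not corrected for the number of windows per gene, so members and all genes are not strictly comparable. Of all windows in the table, 3.57%, 1.91% and 7.71% held the patterns, in the same order. The first pattern was in windows of BCL2A1, TNFSF10, CASP8 and RIPK1, the second in that of BIRC3, and the third in windows of BCL2L13, CASP8, CFLAR and FADD. No window of a member held matches to more than 1 pattern. Of these, BCL2A1, TNFSF10 and BIRC3 rose, and stretches around their matches are printed 5′ to 3′ on the strand of the gene, with the match in capitals. Counted from the RefSeq start site of the window, the matches begin 133 bases upstream for BCL2A1, 187 for TNFSF10 and 199 for BIRC3, each in the reverse orientation of the pattern. The BCL2A1 match lies inside an exon of the gene model used for counting, downstream of the 5′ end of that model, and the other matches lie outside the exons of theirs. They are descriptions of letters and not of bound sites.
BIRC3, chr11:102317234-102317369, plus strand: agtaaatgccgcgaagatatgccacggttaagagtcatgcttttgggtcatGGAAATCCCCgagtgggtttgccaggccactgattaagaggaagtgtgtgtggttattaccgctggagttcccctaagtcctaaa
TNFSF10, chr3:172523533-172523680, minus strand: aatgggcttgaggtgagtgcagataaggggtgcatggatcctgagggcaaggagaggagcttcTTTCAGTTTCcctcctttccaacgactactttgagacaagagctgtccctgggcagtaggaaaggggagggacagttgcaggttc
BCL2A1, chr15:79971310-79971339, minus strand: cattttaaacTTTCTCTTTCatacatgaca
The TNFSF10 and BCL2A1 matches are of the interferon-response pattern and that of BIRC3 is of the NF-κB pattern.

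A list of 52 other genes of the pathway moved in both directions too. Of the 41 tested, 11 rose, 9 fell and 21 did not pass, or 48.8% passing against the background of 46.2%, and their median log2 fold change was 0.03. The log2 fold change was above 1 in size for 3 of those that passed, all higher. TNFRSF9, encoding the costimulatory receptor 4-1BB, went from 3.17, 3.01 and 2.63 CPM in the shCon to 14.6, 19.1 and 14.1 CPM in the shCdGAP libraries, a log2 fold change of 2.43 (SE 0.141, adjusted p = 1.36e-06). GSDME, a gasdermin that opens the cell membrane once cleaved, went from 9.80, 11.2 and 10.1 to 43.2, 55.6 and 41.1 CPM, a log2 fold change of 2.17 (SE 0.123, adjusted p = 2.80e-06). TRAF1, an adaptor of TNF receptors, had 7, 11 and 4 reads in the shCon and 28, 39 and 19 in the shCdGAP libraries and a log2 fold change of 1.93 (SE 0.335, adjusted p = 0.00102).

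The following genes of that list were picked after their values were seen, as partners of the members. BAX, the effector paired with BAK, had a log2 fold change of -0.03 (adjusted p = 0.670, 95% interval -0.13 to 0.08). PMAIP1, encoding the BH3-only protein NOXA that binds MCL1, rose by a log2 fold change of 0.88 (SE 0.0361, adjusted p = 1.73e-07). BBC3, encoding the BH3-only protein PUMA, had a log2 fold change of 0.02 (adjusted p = 0.928). BIRC5, encoding the inhibitor of apoptosis survivin, which also acts in cell division, stood at 301, 309.9 and 291 CPM in the shCon and at 236, 276 and 229.7 CPM in the shCdGAP libraries, and it fell by 0.28 on the log2 scale (SE 0.0667, adjusted p = 0.00610). Its adjusted p reached 0.0263 over the fits that leave out a library, so the call did not hold in all of them. At 78.8 and 64.8 CPM per kilobase in control and shCdGAP cells, BIRC5 was more abundant than each of the 4 inhibitors among the members. Around the TNF receptor, TNFAIP3 (A20) and CYLD, both of which remove ubiquitin from its complex, rose by 0.87 (adjusted p = 2.50e-06) and 0.60 (adjusted p = 1.82e-05). TRAF2, which brings the cIAP proteins to that complex, fell by 0.87 on the log2 scale (SE 0.0503, adjusted p = 1.30e-06), and it lies on chromosome 9, where the 49 expressed genes around it had a median of -0.65. TNF itself was too low to be tested, with 6, 3 and 1 reads in the shCon and 5, 5 and 1 in the shCdGAP libraries.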

How the data were processed

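RNA of 3 shCdGAP and 3 shCon samples of PC-3 cells was sequenced. Per the methods and labels, the authors aligned reads to GRCh38 with STAR 2.5.1b and counted them per gene with featureCounts 1.4.6, while the headers of the deposited files name version 1.6.0, strand-specific counting with paired-end options and Ensembl release 77. The methods name a single-read kit, so whether each count is a read or a read pair is not settled, and both are called reads here. The deposited values are raw read counts, and reads that align to several places or to overlapping genes of the same strand are not in them. Totals ran from 33182796 to 43154039 reads per library, and counting error weighs most on genes with few reads, such as TRAF1, TNFRSF10C, CASP1, BIK and TNFSF10.

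From these counts, edgeR 4.0.16 (R 4.3.3) was run on all genes that passed its expression filter (16439 of 64253), with TMM scaling and its robust quasi-likelihood test of shCdGAP against shCon. P-values were adjusted by the Benjamini-Hochberg method over all genes tested. CPM are TMM-scaled, exon lengths came from the deposited tables, and the standard error was taken from the F statistic as the size of the log2 fold change over its square root. The procedure was tested on simulated counts with only 200 changed genes, where 46.2% of the tested genes passed in these data. That test therefore does not show how the procedure behaves under a shift this broad. Intervals are at 95%, and a count of 0 was taken to allow 3 reads, both of which cover counting or sample spread only. P-values measure the spread between the cultures sequenced, not between clones.

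The members and gene lists were chosen with earlier results of these data known. Members past an adjusted p of 0.01 with a log2 fold change of at least 0.5 in size are described in full, as is the most abundant other tested member of each role per kilobase, and other pathway genes are named past a log2 fold change of 1 unless said otherwise. The alternatives were DESeq2 1.42.0, upper-quartile and library-size scaling, no filter on low counts, at least 10 reads in every library, an adjusted p under 0.05, a block for the replicate number, and leaving out each of the 6 libraries. Promoter windows came from RefSeq (GRCh38.p14) and matched 30 of the 42 members. BCL2L2, MCL1, BIK, BNIP3L, CASP1, CASP10, TNFRSF10A, TNFRSF10B, TNFRSF10C, TNFRSF10D, TRADD and RIPK3 had no match. Some genes of the marker and pathway lists are not reported here.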

Additional observations from a re-analysis of the deposited data

How the results depend on the processing

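Of the 39 tested members, 22 kept their direction and their side of the threshold under all 13 alternatives, and 17 changed under at least 1. Without shCdGAP replicate 2, 19 members were higher and 12 lower in place of 12 and 7, the 19 members that passed with all libraries among them. Of the other pathway genes, 15 were higher in place of 11 and 15 lower in place of 9. In that fit 60.0% of all tested genes passed, in place of 46.2%. Leaving out each library in turn gave 10 to 19 members higher and 7 to 12 lower, and 10 to 15 other pathway genes higher and 7 to 15 lower. With no filter on low counts 14 members were higher in place of 12 and 11 lower in place of 7, and the cause was not tested. DESeq2 called 13 higher and 8 lower, and an adjusted p under 0.05 gave 18 and 10. The share of all tested genes was taken only with all libraries and without shCdGAP replicate 2, at an adjusted p under 0.01. Counts under the other settings therefore have no background to be read against. The directions that reversed belonged to members that did not pass. Over the fits that leave out a library, BCL2L11 ran from -0.06 to 0.03, BNIP3L from -0.28 to 0.03 and TNFRSF10C from -0.12 to 0.44. BCL2L11 had a log2 fold change of 0.01 with library-size scaling and 0.03 without shCon replicate 1, BNIP3L 0.03 without shCdGAP replicate 3, and TNFRSF10C -0.12 without shCdGAP replicate 2. FADD was at -0.01 with DESeq2 and between -0.03 and -0.02 without shCdGAP replicate 1 or 3 or shCon replicate 1 or 3. With the replicate number as a block, 11 members were higher and 7 lower, and DIABLO was lost at an adjusted p of 0.0106 by edgeR's quasi-likelihood test. Deviations of same-numbered libraries correlated at 0.0306, 0.0499 and 0.0469, and each shCdGAP library correlated best with its own number. The labels state no pairing, and correlations this weak over so few libraries cannot decide whether the samples were paired. The log2 fold change of ARHGAP31 ran from -1.17 to -1.14 over the fits that leave out a library. Low reads limit TRAF1, TNFRSF10C, CASP1, BIK and TNFSF10 among the genes named.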
